A study of Mus musculus with 8 samples.

Results

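The cyclins of the core cell cycle were followed in mouse undifferentiated spermatogonia, a testis population that holds the male germline stem cells, after acute deletion of Tert, the gene of the telomerase reverse transcriptase. The genes are the 3 D-type cyclins (Ccnd1, Ccnd2, Ccnd3), the 2 E-type (Ccne1, Ccne2), the 2 A-type (Ccna1, Ccna2) and the 3 B-type cyclins (Ccnb1, Ccnb2, Ccnb3). They were picked out by gene symbol, with earlier results of these data known, and all 10 had a row among the 14853 genes of the table in which the authors compared the genotypes. The study held 4 samples of genotype TERTCreER/flox and 4 of genotype TERTCreER/+, each also heterozygous for Rosalsl-Tdtomato, a red fluorescent reporter that Cre switches on. All came from C57BL/6 mice of 8 to 12 weeks. In both groups 1 Tert allele carries CreER, a Cre recombinase that tamoxifen activates, so the TERTCreER/+ cells keep a single normal allele and are not wild type. All mice received tamoxifen, and on day 7 Tdtomato-positive cells that stained high for MCAM and lacked KIT were sorted for stranded total RNA sequencing. CreER sits at Tert, so the recombined cells are those in which the Tert locus drives enough Cre. The 2 genotypes are called CreER/flox and CreER/+ below.

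Cyclins are the regulatory subunits of cyclin-dependent kinases (CDKs), and their rise and fall sets when each kinase works. D-type cyclins pair with CDK4 and CDK6 in G1 and carry growth factor signals to the RB proteins, E-type cyclins pair with CDK2 at the start of DNA replication, cyclin A2 serves S and G2 phases, and B-type cyclins drive CDK1 into mitosis. In the mouse testis Ccna1 belongs to meiosis, where males need it to leave prophase, Ccnb3 is expressed mainly in meiotic germ cells, and Ccnd2 is a cyclin of spermatogonia.

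Promoter sequences show what part of the called and uncalled cyclin genes carry before their starts. RefSeq promoters of build GRCm38.p6 were found for 6 of the 10 genes, namely Ccne1, Ccnb1, Ccnb2, Ccna1, Ccnb3 and Ccnd3, the last with 2 start sites. None was found for Ccnd1, Ccnd2, Ccne2 and Ccna2, of which Ccna2 was called higher in the CreER/flox samples. The sequences below are those of Ccne1 and Ccnb1, both called higher in the CreER/flox samples, and of Ccnb2, the uncalled sister of Ccnb1. All 3 lie on the minus strand and are written 5′ to 3′ along the gene, from 250 bases before the RefSeq start to the last base before any annotated transcript. They cover chr7:38107535-38107740 for Ccne1, chr13:100786571-100786736 for Ccnb1 and chr9:70421555-70421804 for Ccnb2. Capitals mark matches to CCAAT, the box bound by the factor NF-Y, and to TTTGAA, the core of the cell cycle homology region (CHR) that cell cycle repressors and activators bind.
Ccne1: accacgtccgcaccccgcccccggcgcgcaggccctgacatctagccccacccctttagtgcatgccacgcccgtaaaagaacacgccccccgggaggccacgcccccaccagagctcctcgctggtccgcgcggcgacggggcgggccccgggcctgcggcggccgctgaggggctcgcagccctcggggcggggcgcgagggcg
Ccnb1: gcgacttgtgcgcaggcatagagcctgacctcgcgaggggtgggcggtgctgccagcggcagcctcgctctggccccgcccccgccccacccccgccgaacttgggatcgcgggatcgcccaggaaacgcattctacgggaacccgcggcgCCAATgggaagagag
Ccnb2: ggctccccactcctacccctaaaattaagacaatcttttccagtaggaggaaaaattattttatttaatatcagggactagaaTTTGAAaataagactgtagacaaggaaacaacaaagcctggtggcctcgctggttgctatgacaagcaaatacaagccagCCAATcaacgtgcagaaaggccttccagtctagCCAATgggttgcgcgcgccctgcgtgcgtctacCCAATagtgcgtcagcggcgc

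In the 250 bases before the start, on both strands, Ccnb2 held 3 CCAAT boxes, at -87, -54 and -21, and a TTTGAA at -167. A further TTTGAA of Ccnb2 lay at +5, past the start and so outside this window and the stretch shown. Ccnb1 held 2 CCAAT boxes, at -99 and -67, of which the second lies inside a longer annotated transcript and past the stretch shown. Ccne1 held none of the motifs and was the richest in G and C, at 76.0% of bases with 34 CpG pairs, beside 69.6% and 28 for Ccnb1 and 47.6% and 10 for Ccnb2. At least 1 CCAAT was found for 4 of the 6 genes (also Ccna1 and 1 start of Ccnd3), against 33.9% of the 32851 promoters in the table. The same table had at least 2 in 10.1% and at least 3 in 2.79% of promoters. These shares count promoters, of which the 6 genes had 7, so the units differ. The Ccna1 start lay 446 bases after the most upstream annotated start of its gene, and the matching Ccnd3 start 88416 bases after. A CHR match (TTTGAA or TTCGAA) was present for 1 of the 6 genes, against 17.2% of promoters. E2F sites, searched as TTTCCCGC, TTTGGCGC, TTTCGCGC and TTTGCCGC, were found for 0 of the 6 genes and in 1.86% of promoters. No 2 matches overlapped, and a missing match says only that the letters are not in this window.

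The comparison asks whether loss of Tert goes with other levels of cyclin mRNA. In the authors' deposited table Ccne1, Ccnb1 and Ccna2 were higher in the CreER/flox samples by 1.51-, 1.36- and 1.29-fold, and the other 7 cyclins did not pass the test. Called means an adjusted p under 0.05 in the authors' DESeq2 Wald test with Benjamini-Hochberg adjustment over all genes. By this rule 3 of 10 cyclins were called higher and 0 lower in the authors' deposited table, where 5.36% of all genes were called, 1.94% higher and 3.42% lower. Of all 796 called genes 288 were higher, and of the 381 protein-coding genes called once a trend with transcript length, GC and mean count was removed, 82 were higher. Since the cyclins were chosen with such results known, their share is a description. The same 3 of 10 had an unadjusted p under 0.05, as had 2921 of 14853 genes (19.7%). Over the 10 cyclins the median log2 fold change was 0.07, against 0.00071 over all genes, and 7 were above 0, against 50.1% of all genes. With the trend removed the median was 0.028, against 0.0099 over the protein-coding genes in that fit, and 7 of 10 were above 0. Where a transcript differs in a sorted bulk sample, another share of cells in a phase of the cycle and another amount of RNA per cell cannot be told apart. The table gives a single value per gene for each comparison, and values of single libraries were not used here, so neither levels by genotype nor the overlap of the groups can be described. The direction, CreER/flox over CreER/+, rests on the name of the table, which sets flox against WT, although the labels hold no wild-type group.

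**Figure D1:**
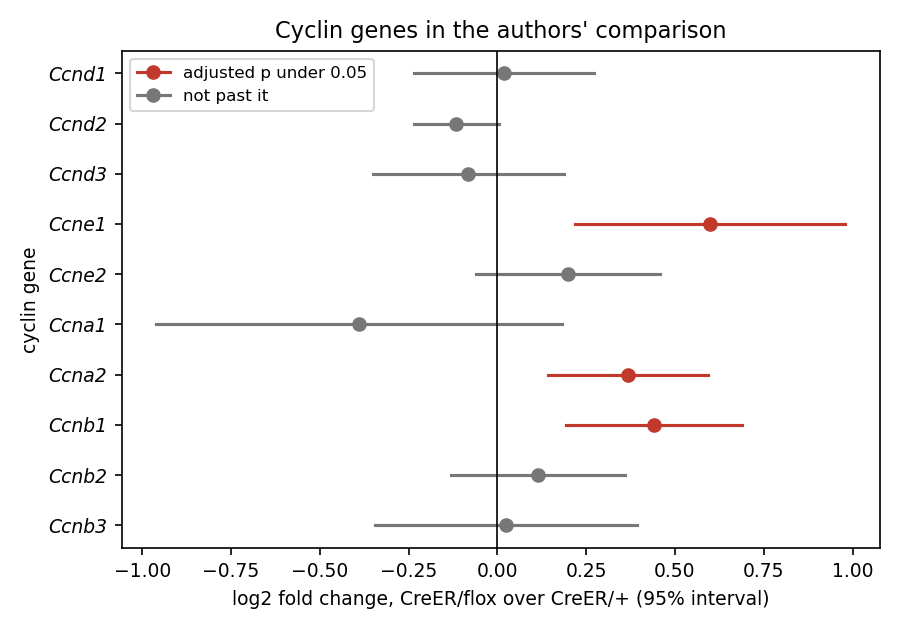
Log2 fold change of CreER/flox over CreER/+ (horizontal axis) for each of the 10 cyclin genes, with 95% intervals from the authors' standard errors (4 samples per genotype). The intervals of Ccne1, Ccna2 and Ccnb1 lie above 0, and those of the other 7 genes include 0.

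The targeted gene came first. In the authors' deposited table Tert stood at 0.29 on the log2 scale (SE 0.26, adjusted p 0.595). Where Cre cuts the gene is not stated in the sources used here, so it is no check of the labels or of the direction.

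Of the D-type cyclins, which open G1, none passed the test. Ccnd2 (Entrez 12444, chr6:127125162-127152188) had the highest mean count of the family, 3580 normalized counts over the 8 libraries, and a log2 difference of -0.12 (SE 0.061, adjusted p 0.280) per the authors' deposited table. Its 95% interval, 0.85- to 1.00-fold, was the narrowest of the 10. Ccnd1 (Entrez 12443, chr7:144929931-144939831) stood at 0.018 (SE 0.13, adjusted p 0.964) with a mean count of 659 in the authors' deposited table. For Ccnd3 (Entrez 12445, chr17:47505051-47599689) the authors' deposited table had -0.082 (SE 0.14, adjusted p 0.813) at a mean count of 335. The intervals of Ccnd1, 0.85- to 1.21-fold, and Ccnd3, 0.78- to 1.14-fold, leave out a change as large as the 1.51-fold point estimate of Ccne1.

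The E-type cyclins, which start replication with CDK2, gave a called and an uncalled gene. Ccne1 (Entrez 12447, chr7:38097984-38107490) rose by 0.60 on the log2 scale (SE 0.19, adjusted p 0.0425, mean count 123) in the authors' deposited table, the largest fold of the 10 cyclins and above 97.0% of all genes. Its 95% interval was wide, 1.16- to 1.97-fold. Ccne2 (Entrez 12448, chr4:11190433-11204779) stood at 0.20 (SE 0.13, adjusted p 0.421, mean count 343) in the authors' deposited table, with an interval of 0.96- to 1.37-fold. The 2 intervals overlap. Whether the 2 genes differ was not tested, because their covariance over the libraries is not in the table.

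The A-type cyclins lay on opposite sides of 0, and the mitotic and S-phase member was the called one. Ccna2 (Entrez 12428, chr3:36564865-36573038) rose by 0.37 (SE 0.12, adjusted p 0.0346, mean count 1265) in the authors' deposited table, with an interval of 1.10- to 1.51-fold. The meiotic Ccna1 (Entrez 12427, chr3:55045469-55057634) had the lowest mean count of the 10, 56.4, and a log2 difference of -0.39 (SE 0.29, adjusted p 0.495) per the authors' deposited table. Its interval, 0.51- to 1.14-fold, was the widest on the log2 scale.

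Among the B-type cyclins, which act with CDK1 at mitosis, Ccnb1 (Entrez 268697, chr13:100778739-100786486) rose by 0.44 (SE 0.13, adjusted p 0.0187, mean count 1205) in the authors' deposited table. That was the smallest adjusted p of the 10 cyclins, and the interval was 1.14- to 1.61-fold. Ccnb2 (Entrez 12442, chr9:70407689-70421554), the B-type cyclin found at the Golgi, stood at 0.11 (SE 0.12, adjusted p 0.684, mean count 413) in the authors' deposited table, with an interval of 0.91- to 1.28-fold that overlaps that of Ccnb1. The germ cell cyclin Ccnb3 (Entrez 209091, chrX:6979652-7041635) stood at 0.024 (SE 0.19, adjusted p 0.967, mean count 95.2) in the authors' deposited table.

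**Figure D2:**
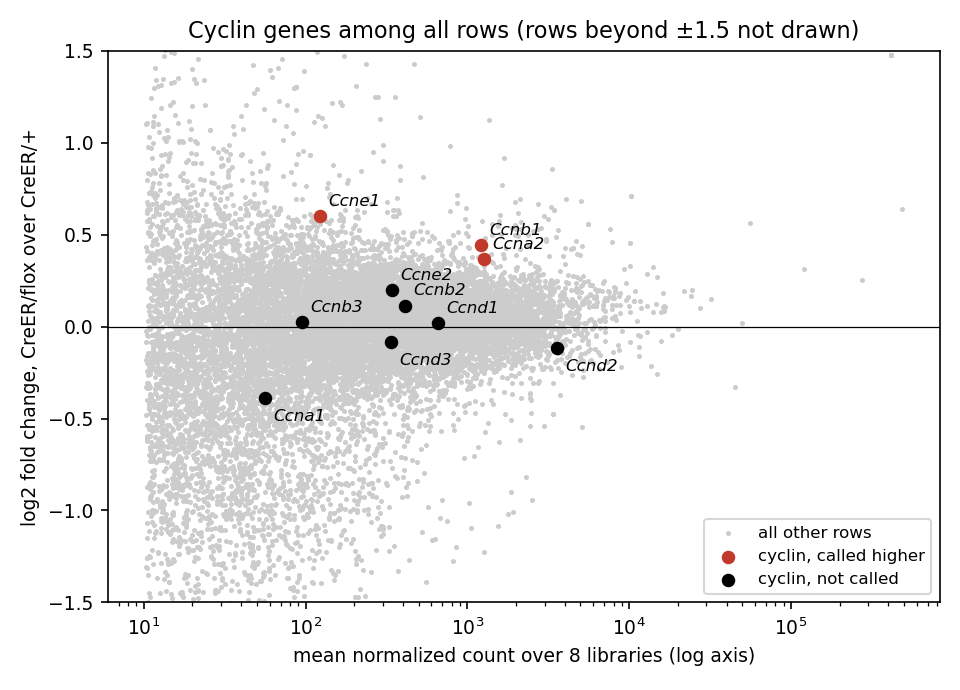
Log2 fold change of CreER/flox over CreER/+ (vertical axis) against mean normalized count over the 8 libraries (horizontal log axis) for all genes of the authors' table, with the 10 cyclins marked and 159 genes beyond ±1.5 not drawn. Ccnb1 and Ccna2 sit together at mean counts of 1205 and 1265, and Ccne1 at 123.

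The precision of these values differed among the cyclins in a way that mean count did not set. The SE of Ccnb1 was 1.51 times the median SE of the 200 genes of nearest mean count, a ratio above those of 96.6% of genes. Ccna2 had a ratio of 1.37 and Ccnd1 of 1.27, above 94.6% and 91.7% of genes. By contrast the ratio was 0.97 for Ccne1, 0.87 for Ccnd2 and 0.83 for Ccnb3, the last above 0.727% of genes. So 2 of the 3 called cyclins were among the genes with the largest SE for their level. With no statement in the labels that the samples are separate animals, the p-values measure the spread between these samples, which may be technical.

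The 3 calls depend on how the test is read. With a t distribution of 6 degrees of freedom in place of the normal one, the adjusted p was 0.439 for Ccne1, Ccna2 and Ccnb1 alike. With the statistics divided by 1.45, the width of their central part, it was 0.699, 0.680 and 0.616. Over all 14853 genes the first reading left 0 calls and the second 5, against 796 as deposited, so this loss was not particular to the cyclins. Removal of the trend that fold changes showed with length, GC content and mean count of the transcript left the call of Ccne1 (0.64, adjusted p 0.0422). Ccna2 (0.26, adjusted p 0.240) and Ccnb1 (0.31, adjusted p 0.203) no longer passed. Over all protein-coding genes in that fit, 704 calls became 381. Genes of like length, GC and mean count had a fitted log2 fold change of 0.13 for Ccnb1, 0.10 for Ccna2 and -0.037 for Ccne1. The trend took Ccne2 to 0.031 and Ccnb2 to 0.025.

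**Figure D3:**
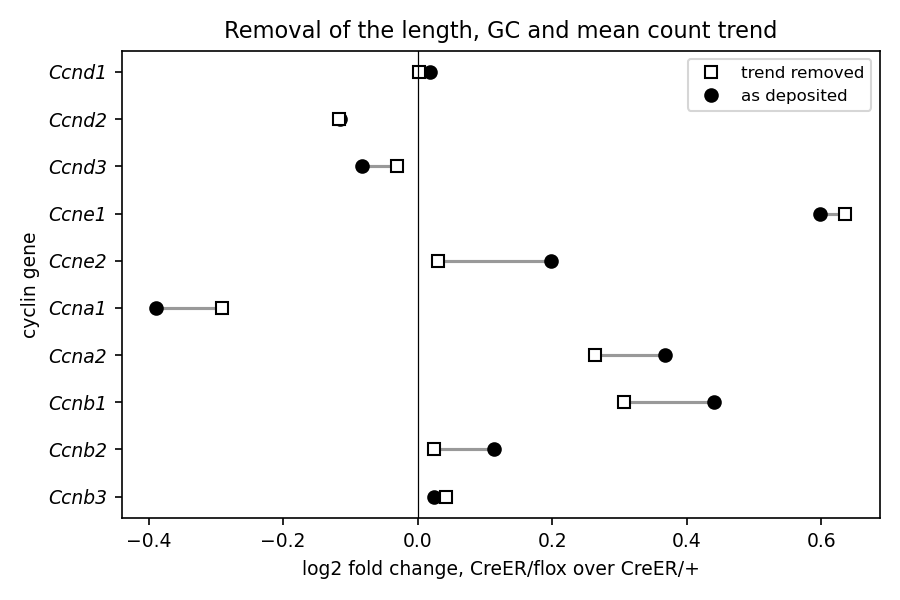
Log2 fold change of CreER/flox over CreER/+ (horizontal axis) for the 10 cyclins with the trend removed (open squares) and as deposited (filled circles). Ccne1 moves to 0.64 with the trend removed, against 0.60 as deposited, and Ccnb1 to 0.31 against 0.44.

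Levels were compared between cyclins per kb of the longest annotated transcript, as mean normalized counts over both genotypes. Ccnd2 was the most abundant at 566 counts per kb, followed by Ccnb1 at 484, Ccna2 at 426 and Ccnb2 at 270.0. The middle of the order held Ccnd1 at 176, Ccne2 at 114, Ccnd3 at 87.0 and Ccne1 at 61.4 counts per kb. The meiotic Ccna1 and Ccnb3 came last at 32.8 and 20.9 counts per kb. With these lengths Ccnd2 exceeded Ccnd1 by 3.21 times and Ccnd3 by 6.50 times, and Ccna2 exceeded Ccna1 by 13.0 times. Cyclin Ccnb1 lay above 92.3% of all genes with a length, Ccnb3 above 24.3%. The called genes were thus the second, the third and the eighth in level. No spread over libraries is at hand for these levels, so whether neighbours such as Ccnb1 and Ccna2, which stand 1.14-fold apart, differ was not tested.

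**Figure D4:**
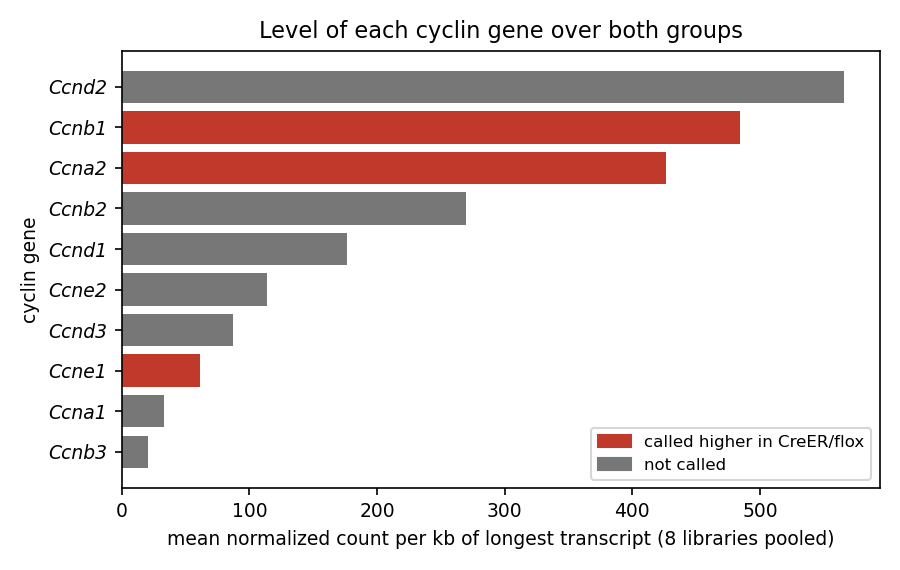
Mean normalized count per kb of the longest annotated transcript (horizontal axis, averaged by the authors over 8 libraries of both genotypes) for each cyclin gene. Ccnd2 leads at 566, and Ccna1 and Ccnb3 are lowest at 32.8 and 20.9.

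The order depends on the transcript chosen, since several genes have short annotated fragments. With the median transcript length, Ccnd2 stayed first at 4447 counts per kb and Ccnb1 second at 1020 counts per kb, Ccna1 and Ccnb3 stayed last at 46.3 and 21.1, and Ccne2 moved above Ccnb2 and Ccnd1 at 640 counts per kb. Ccnd2 then exceeded Ccnd1 by 12.0 times and Ccnd3 by 11.3 times, with Ccnd3 (393 counts per kb) above Ccnd1 (372 counts per kb) in place of below it. Ccna2 exceeded Ccna1 by 15.9 times.

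Genes that share ground with a cyclin could lend it reads where the counting ignored strand, which the sources used here do not state. Exosc9, an exosome subunit gene that overlaps the end of Ccna2 by 863 bases on the other strand, stood at 0.18 (SE 0.099, adjusted p 0.297) per the authors' deposited table. Ints8, which overlaps Ccne2 by 5622 bases including introns, stood at 0.16 (SE 0.090, adjusted p 0.330) there. Neither was called in the authors' deposited table. LTO1, which overlaps Ccnd1 by 1771 bases (0.25, SE 0.19), and Bysl, which overlaps Ccnd3 by 361 (0.012, SE 0.11), were not called there either. Antisense genes overlap Ccnd2 (9330179D12Rik by 2805 bases and Gm43126 by 994) and Ccna1 (4931419H13Rik by 260). Of these, 9330179D12Rik had a row, at -0.29 (SE 0.52, mean count 13.4) and uncalled in the authors' deposited table. Ccne1, Ccnb1, Ccnb2 and Ccnb3 overlapped no other gene of the GENCODE M21 annotation. Processed pseudogenes of Ccnb1, Ccnb2 and Ccnd3 are annotated elsewhere in the genome without a row in the table, and how reads that match both were counted is not stated in those sources.

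Genes that act with the cyclins were examined in 6 lists with 87 measured of 88 listed genes. Of these, 1 was called higher and 0 lower in the authors' deposited table, a share below the 5.36% of all genes. At an unadjusted p under 0.05, 13 of the 87 passed (14.9%), against 19.7% of all genes. All 13 were above 0, and 9.15% of all genes passed this p above 0. The 87 genes had a median log2 fold change of 0.06, with 59 above 0 (67.8%) and 28 below, against 50.1% of all genes above 0. With the trend removed, 54 of the 87 were above 0 (62.1%) with a median of 0.05, against 52.1% of the protein-coding genes in that fit.

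The called gene was Ccnh, among 17 cyclins outside the core cycle. Ccnh joins CDK7 in the kinase that activates other CDKs and phosphorylates RNA polymerase II. It rose by 0.34 (SE 0.093, adjusted p 0.0133, mean count 949) in the authors' deposited table, and with the trend removed it stood at 0.14 (adjusted p 0.503). The 17 genes had a median of 0.03. Cdk7 itself stood at 0.34 (SE 0.12, adjusted p 0.0619) per the authors' deposited table without passing, and Mnat1, the third subunit, named after its value was seen, at -0.096 (SE 0.15, adjusted p 0.799).

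The kinase partners of the core cyclins had 0 of 6 called and a median of 0.05. Cdk1, the partner of cyclins A2 and B1, had a value close to theirs, 0.44 (SE 0.17, adjusted p 0.107), and Cdk6, a partner of D-type cyclins, stood at -0.18 (SE 0.16, adjusted p 0.570) per the authors' deposited table. Kinase activators and brakes had 0 of 8 called and a median of 0.14. Besides Cdk7, the smallest p belonged to Cdc25a, a phosphatase that activates CDK2 (0.23, SE 0.096, adjusted p 0.149 per the authors' deposited table).

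CDK inhibitors and the RB family had 0 of 10 called and a median of -0.02. In the authors' deposited table Cdkn1c (p57) stood at 0.21 (SE 0.12, adjusted p 0.301) and Cdkn2c (p18), an inhibitor of CDK4 and CDK6, at -0.45 (SE 0.29, adjusted p 0.402). The 20 regulators that act on cyclin gene promoters had 0 called, 17 above 0 and a median of 0.11. E2f6, a repressor of the E2F family, stood at 0.23 (SE 0.083, adjusted p 0.0708) and the histone-binding Rbbp4 at 0.19 (SE 0.087, adjusted p 0.190) per the authors' deposited table.

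Genes of cyclin degradation, by the SCF ligases in G1 and S and the anaphase-promoting complex in mitosis, had 0 of 26 measured members called and a median of 0.06. Skp1a, the SCF adaptor, stood at 0.24 (SE 0.081, adjusted p 0.0553) and Anapc4 of the anaphase-promoting complex at 0.22 (SE 0.081, adjusted p 0.0796) per the authors' deposited table.

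**Figure D5:**
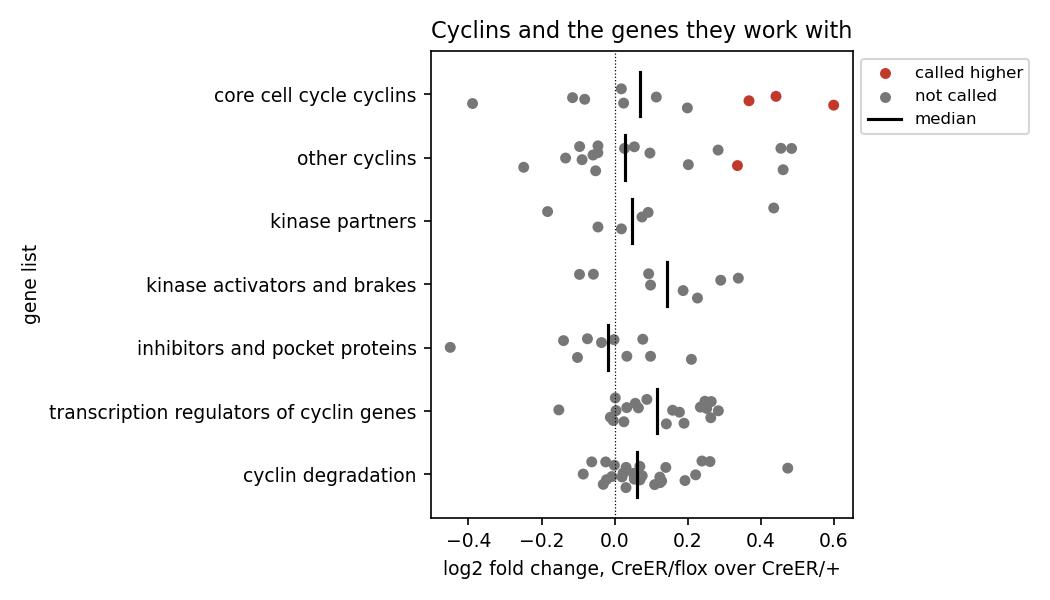
Log2 fold change of CreER/flox over CreER/+ (horizontal axis) for every measured gene of the cyclin list and of 6 lists of genes that act with cyclins, 1 point per gene, with the median of each list as a bar. The 3 called cyclins and Ccnh are coloured, and the medians of the 6 other lists lie between -0.02 and 0.14.

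Markers of the cells a sort could hold moved in part with the genotype. Of 18 markers of undifferentiated spermatogonia and 5 of differentiating ones, 0 were called, with medians of -0.04 and -0.09. The 5 differentiating markers went both ways, from -0.91 to 0.30. Of these 5, 3 had an unadjusted Wald p under 0.05 (2 of them above 0), as had 3 of the 18 undifferentiated ones (1 above 0) and 19.7% of all genes. The sort marker Mcam had a mean count of 4854. Spermatid markers were below 0 in 15 of 15 genes (median -1.10), with 6 called lower in the authors' deposited table, led by the sperm tail gene Odf1 (-1.14, SE 0.22) and by Spem1 (-1.47, SE 0.33), which spermatids need to mature. Over all genes, 3.42% were called lower and 1.94% higher, and 7413 of 14853 were below 0. Spermatocyte markers were split, with 4 of 13 genes above 0 and 9 below (median -0.27). Of them, Piwil1 (-0.73, SE 0.14) and Sycp2 (-0.53, SE 0.15) were called lower in the authors' deposited table. The meiotic cyclins Ccna1 (-0.39) and Ccnb3 (0.024) stand beside these values, and the part of later germ cells in the cyclin values was not tested. Of the lists for Sertoli, Leydig, myoid, endothelial, leukocyte and erythroid cells, 19 of 31 genes had a row, with Trf called higher (0.62, SE 0.15) and Actg2 lower (-1.17, SE 0.37) in the authors' deposited table.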

How the data were processed

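Total RNA libraries of sorted spermatogonia from 4 CreER/flox and 4 CreER/+ samples were made with a stranded low-input kit, per the labels' protocols. Per the submitters' processing notes, the authors used DESeq2, Bowtie, Bowtie2 2.0.0-6, TopHat2 2.0.4 and Trim Galore on build GRCm38 (mm10). Not given in the sources used here are the read counter, its strand setting and the annotation. The single table used holds, per gene, the authors' deposited mean of normalized counts over all libraries, a signal value, and the log2 fold change and SE that the authors fitted. Its deposited score is the Wald statistic, and its p-values, unadjusted and adjusted, are the authors' own. A Benjamini-Hochberg adjustment of the p-values over all rows came within 0.426% of the adjusted ones. Depth per library is unknown here, so precision is given by the SE. Every gene had a mean count above 10.

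No model across libraries was fitted. Intervals are the fold change ± the 95% normal range of the SE. Gene positions are RefSeq GRCm38.p6, and lengths and GC content are those of GENCODE M21 transcripts, found for 93.8% of rows. The trend was a weighted spline fit with 4 degrees of freedom per term over 13694 protein-coding genes, tested on simulated data. The simulated trend ran with transcript length only, with normal noise of the size of the deposited SE. Removal of a trend with GC or mean count, or under a wider spread, was therefore not tested. The cyclins and gene lists were chosen with earlier results of these data known. Named genes were all cyclins, Tert, up to 4 called genes of each cyclin-related list (2 of smallest p where none was called) and up to 2 called markers per cell type. Proteins were not analysed here. Scripts ran in Python 3.11.15 (numpy 2.4.6, pandas 2.3.3, matplotlib 3.10.9, scipy 1.17.1).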

Additional observations from a re-analysis of the deposited data

How the results depend on the processing

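The 3 called cyclins stayed 3 at an adjusted p under 0.1, with adjustment over genes of mean count at least 100, with centring on the median and with identical rows counted once. The count was 0 at an adjusted p under 0.01, 1 with a minimum log2 fold change of 0.5 (Ccne1), 1 with the trend removed (Ccne1), and 0 with a t distribution of 6 degrees of freedom and with the null SD of 1.45, although 3 cyclins had an unadjusted p under 0.05 in both of these. The 1 called gene of the cyclin-related lists became 7 at an adjusted p under 0.1, 2 with adjustment over mean counts of at least 100, and 0 at 0.01, with the minimum fold, with the t distribution (8 at an unadjusted p under 0.05), with the null SD (4) and with the trend removed. Over all genes, 796 calls became 1340 at 0.1, 264 at 0.01, 528 with the minimum fold, 0 with the t distribution (1652 at an unadjusted p under 0.05), 5 with the null SD (986) and 381 with the trend removed, where 704 of the genes covered had been called. The higher share of calls was 82 of 381 with the trend removed and 288 of 796 as deposited. The causes were not tested. No cyclin changed direction with the trend removed. Every other setting kept the fold changes as deposited, apart from centring, which shifted them by 0.00071, so none of these could reverse a cyclin. The median cyclin level per kb was 383 with median transcript lengths and 145 with the longest ones. Cyclins with a CCAAT box numbered 4 of 6 in either promoter window. No paired analysis was possible because the table holds no values per library, and for the same reason no sample could be left out. Protein features were not run.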
